A study of Drosophila melanogaster with 6 samples.

Results

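Complex I (NADH:ubiquinone oxidoreductase) is the entry point of the mitochondrial respiratory chain. It takes electrons from NADH, passes them through a flavin and a row of iron-sulfur clusters to ubiquinone, and pumps protons across the inner membrane. The enzyme has the shape of an L. A matrix arm holds the N module, which oxidizes NADH, and the Q module, which reduces ubiquinone, and a membrane arm holds the proton pumps. Most subunits are encoded in the nucleus and the central subunits of the membrane arm in mitochondrial DNA, so that both genomes supply 1 complex. FlyBase gives most of the nuclear subunit genes of *Drosophila*, and some paralogs of them, symbols that begin with ND-.

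Genes with such a symbol were taken from the table of read counts in fly heads, and 40 of its 17492 genes qualified. The heads came from wild-type line 5905 (w1118) at ages of 3d and 30d, with 3 samples per age and no further treatment or allele in the labels. Per the methods of the study, the flies kept for aging were males, and the number of heads per RNA sample is not given in the sources used here. The samples are replicates by their titles only, so p-values measure the spread between these samples, which may be technical. Each library held between 3176380 and 3741860 counts on genes.

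The head label matched the markers at both ages. The 7 photoreceptor markers summed to between 47935 and 64745 CPM (counts per 1000000 counts of the library, scaled by the TMM method of edgeR) in the 6 samples. The 6 neuron markers summed to between 3203 and 5474 CPM, and the 6 testis markers reached at most 3.28 CPM in any sample.

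Transcripts of the nuclear complex I genes were lower in old heads almost throughout. Of the 40 genes, 32 had enough reads to be tested, and 30 of the 32 fell in the 30d heads. None rose. A call means that the quasi-likelihood test of edgeR gave a p-value below 0.05 after Benjamini-Hochberg adjustment over the 8773 genes tested, called the edgeR adjusted p here, and fold changes are given with their standard errors (SE). The median log2 fold change of the 32 genes was -0.41, which is a level 24.8% lower at 30d, while the median over all genes tested was 0.02. Among all genes tested, 16.1% fell and 14.4% rose by the same rule (30.4% in either direction). With libraries scaled by total counts alone, 12.0% of all genes fell and 19.5% rose, and 26 of the 32 complex I genes fell. An exact permutation test of 1 gene in 3 samples against 3 goes no lower than p = 0.1, so the calls rest on the spread that edgeR shares between genes.

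**Figure D1:**
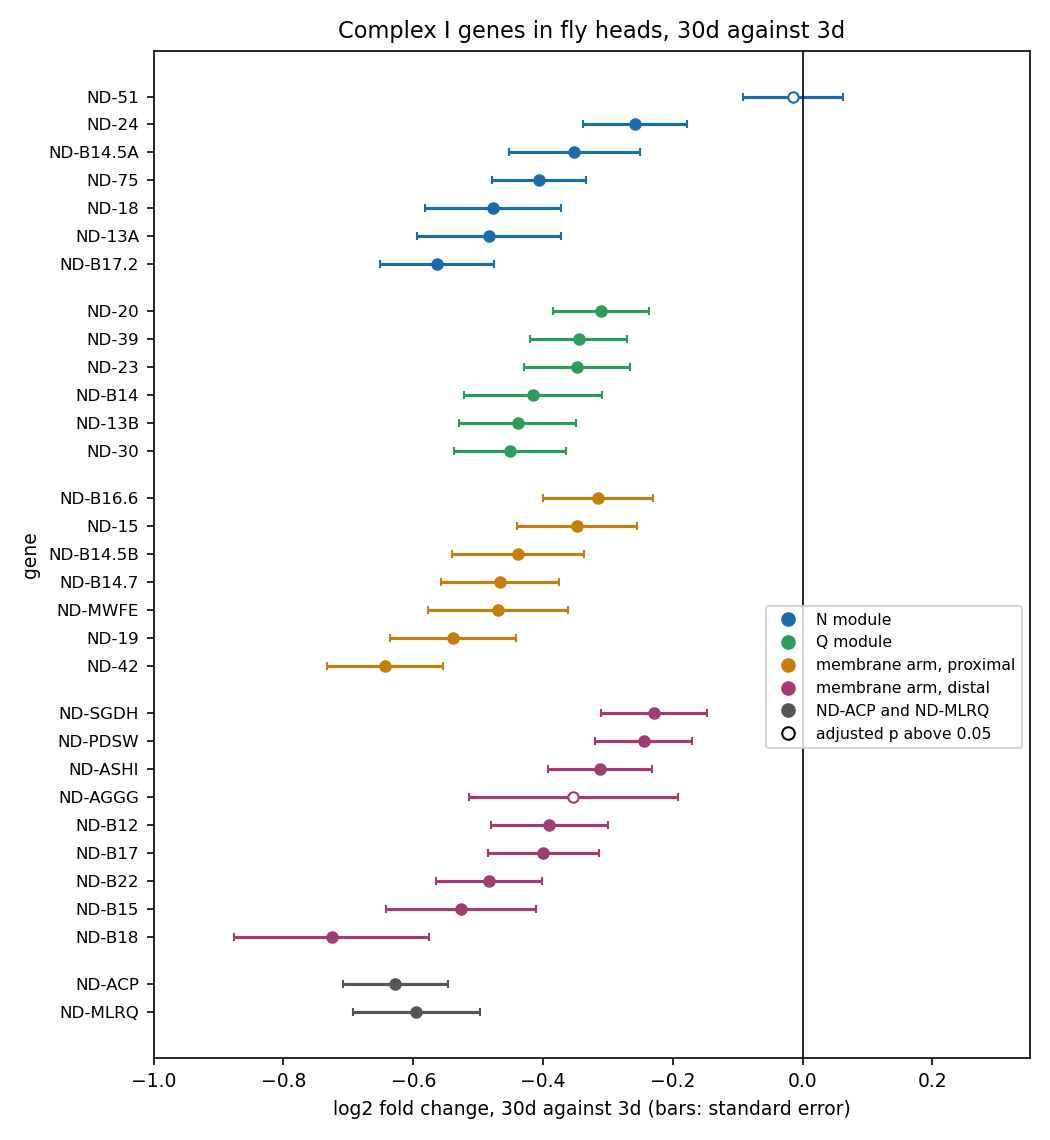
Log2 fold change of 31 of the 32 complex I genes tested, 30d against 3d heads (x axis), for each gene (y axis), grouped by the place of the subunit in the complex. Points are edgeR estimates from 3 samples per age, bars are standard errors, and open points mark the genes above the threshold, *ND-51* at -0.02 and *ND-AGGG* at -0.35, while the other genes lie between -0.73 and -0.23.

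All 32 fitted changes were below 0, against 47.6% of all genes tested, and only *ND-51* crossed 0 under an alternative. Fitted log2 fold changes of the 30 genes ran from -0.73 to -0.23, and the middle part of the 32 lay between -0.48 and -0.35 (quartiles). Only 7 of them reached -0.5. For 30 of the 32 genes every 30d sample lay below every 3d sample, against 22.5% of all genes tested in that direction (44.8% in either), and the exceptions were again *ND-51* and *ND-AGGG*. Summed over the 40 genes, the level was 4827, 4619 and 4351 CPM in the 3d samples and 3567, 3482 and 3574 CPM in the 30d samples. The 3d samples thus differed more among themselves than the 30d samples did, and the ages did not overlap. In bulk heads, fewer cells of a type and less RNA per cell cannot be told apart.

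The nuclear core of the enzyme consists of the 7 subunits that carry its electron path, and 6 of these 7 genes fell, with a median log2 fold change of -0.35 for the 7. *ND-75* (FBgn0017566, chromosome X of dm6, 8248651 to 8251687, minus strand) encodes the largest of them, the NDUFS1 subunit of mammals, which holds several iron-sulfur clusters of the N module. Its level was 482, 469 and 458 CPM in the 3d heads and 356, 354 and 354 CPM in the 30d heads. The 30d samples were nearly equal and stood well under the lowest 3d sample (log2 fold change -0.41, SE 0.07, edgeR adjusted p = 0.00120). With any sample left out, the change stayed between -0.42 and -0.39.

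*ND-51* was the exception among the core genes. It lies on chromosome 2L of dm6 (FBgn0031771, 6060842 to 6062757, minus strand) and encodes the subunit called NDUFV1 in mammals, which binds NADH and the flavin and takes up the electrons. Its level was 433, 432 and 407 CPM at 3d and 446, 407 and 407 CPM at 30d. The ages overlapped, and the fitted change was -0.02 on the log2 scale (SE 0.08, edgeR adjusted p = 0.908, with 0.262 to 0.999 over the alternatives). The sign was not stable, at 0.06 with scaling by library size alone and 0.01 without 30d replicate 2 or 30d replicate 3. Exons of *CG34180* overlap 6.10% of its exon bases. The counting did not use strand, and reads lying wholly in that overlap were not counted.

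**Figure D2:**
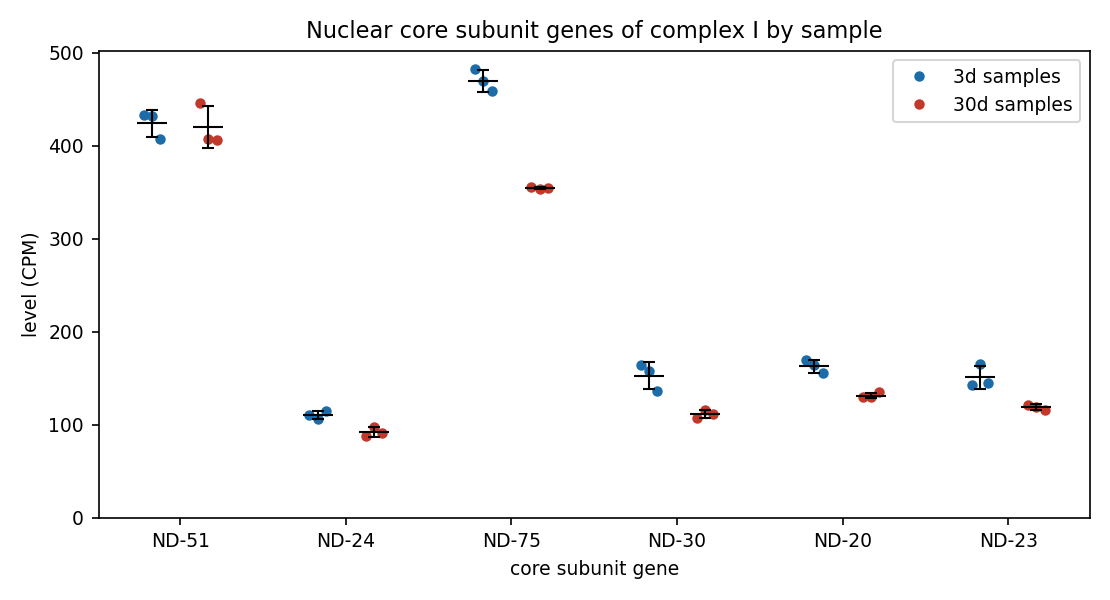
Level in CPM (y axis) of 6 of the 7 nuclear core subunit genes (x axis) in each 3d and 30d head sample, with the mean and SD of 3 samples in black. *ND-51* overlaps between the ages, at 407 to 433 CPM and 407 to 446 CPM, while the 30d samples of each other gene lie below its 3d samples.

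In the mammalian enzyme NDUFV1 sits with NDUFV2 at the tip of the matrix arm. *ND-24*, the NDUFV2 gene on the X chromosome (FBgn0030853), had 111, 106 and 114 CPM at 3d and 87.7, 97.9 and 91.6 CPM at 30d. It fell by 0.26 on the log2 scale (SE 0.08, edgeR adjusted p = 0.0259), the smallest fall among the core genes that passed. The ratio of *ND-51* to *ND-24*, which does not depend on how the libraries are scaled, was 3.90, 4.07 and 3.56 at 3d and 5.08, 4.15 and 4.44 at 30d. The ratio of *ND-51* to *ND-75* was 0.898, 0.921 and 0.889 at 3d and 1.25, 1.15 and 1.15 at 30d. For both ratios the lowest 30d sample exceeded the highest 3d sample, and the means were 1.19 and 1.31 times as high at 30d. An exact two-sided permutation test gave p = 0.1 for each, the smallest that 20 orderings allow, and the pairs were chosen after the values of *ND-51* were seen.

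The core genes of the Q module lead the electrons on to ubiquinone. *ND-30* (NDUFS3) fell the most of the core genes, by 0.45 on the log2 scale, from 164, 158 and 136 CPM to 107, 116 and 111 CPM. *ND-23* (NDUFS8) and *ND-20* (NDUFS7) carry the last iron-sulfur clusters before ubiquinone, and they fell by 0.35 and 0.31. *ND-23* went from 151 ± 12.5 to 119 ± 3.11 CPM and *ND-20* from 163 ± 7.17 to 131 ± 2.96 CPM (SD, n = 3 each), and in neither did the ages overlap.

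Of the accessory subunits of the matrix arm, 7 were tested and all 7 fell. *ND-B17.2* (FBgn0031436, chromosome 2L, 2579201 to 2580172, minus strand), whose mammalian counterpart is NDUFA12, fell by 0.56, from 106, 95.9 and 98.1 CPM to 71.4, 63.2 and 68.1 CPM (SE 0.09, edgeR adjusted p = 0.000491). *ND-13A* (NDUFS6) and *ND-18* (NDUFS4), which in mammals join the N module late in assembly, both fell by 0.48. *ND-13A* went from 75.6 ± 10.3 to 54.1 ± 2.34 CPM and *ND-18* from 90.7 ± 9.60 to 65.1 ± 6.35 CPM (SD, n = 3 each), in each case without overlap. *ND-B14.5A* (NDUFA7) fell by 0.35, from 67.0 ± 1.69 to 52.5 ± 5.32 CPM. In the Q module, *ND-13B* (NDUFA5) fell by 0.44, from 80.9 ± 4.35 to 59.6 ± 2.86 CPM, and *ND-B14* (NDUFA6) by 0.42, from 85.6 ± 10.4 to 64.1 ± 5.09 CPM. *ND-39* (NDUFA9), a relative of the short-chain dehydrogenases, fell by 0.34, with 314, 314 and 290 CPM at 3d and 235, 243 and 245 CPM at 30d. Its 30d samples were close together and clear of the 3d samples. The median was -0.41 over the 7 N module genes tested, *ND-51* included, and -0.40 over the 7 Q module genes. Both modules therefore showed medians close to that of all 32 genes, and no test of a difference between modules was made.

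The accessory subunits of the membrane arm surround the mitochondrially encoded pumps. All 7 genes of the proximal part fell, with a median of -0.47. *ND-42* (FBgn0019957, chromosome 3R of dm6, 22027709 to 22029393, plus strand), a member of the nucleoside kinase family and the NDUFA10 subunit of mammals, fell the most of these. Its level was 253, 229 and 205 CPM in the 3d heads and 142, 155 and 143 CPM in the 30d heads (log2 fold change -0.64, SE 0.09, edgeR adjusted p = 0.000227). The lowest 3d sample was thus still well above the highest 30d sample. *ND-19* (NDUFA8), which had 84.1, 82.5 and 70.8 CPM at 3d, was at 55.3, 52.5 and 55.5 CPM at 30d. *ND-19*, *ND-MWFE* (NDUFA1), *ND-B14.7* (NDUFA11) and *ND-B14.5B* (NDUFC2) fell by 0.54, 0.47, 0.47 and 0.44. *ND-B14.7* was the most abundant of these 4 in CPM, at 129 ± 9.50 at 3d and 93.4 ± 8.97 at 30d, and *ND-MWFE* the least, at 48.7 ± 3.45 and 35.2 ± 3.27. *ND-15* (NDUFS5) fell by 0.35, from 101 ± 10.9 to 79.1 ± 2.33 CPM, and *ND-B16.6* (NDUFA13), known in mammals also as GRIM-19, by 0.32, from 132 ± 6.97 to 106 ± 8.70 CPM. In all 7 genes of the proximal part the 30d samples lay below the 3d samples. Exons of neighbouring genes overlap 35.0% of the exon bases of *ND-MWFE*, 17.5% of those of *ND-B16.6* and 15.9% of those of *ND-15*, and reads lying wholly in such an overlap were not counted.

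In the distal part, 8 of 9 genes fell, with a median of -0.39 over the 9. *ND-B18* (FBgn0030605, chromosome X, 15063733 to 15064926, plus strand), the NDUFB7 gene, had the largest fall of all 32 genes. It stood at 72.3, 57.9 and 46.2 CPM at 3d and 31.3, 36.1 and 38.9 CPM at 30d (log2 fold change -0.73, SE 0.15, edgeR adjusted p = 0.00293). The 3d samples were spread widely, and the change was -0.56 to -0.87 with a sample left out, so its size is less certain than that of *ND-42*. *ND-B15* (NDUFB4) fell by 0.53, from 64.4, 54.1 and 49.8 CPM to 36.8, 38.0 and 41.8 CPM. *ND-B22* (NDUFB9) fell by 0.48, from 108, 103 and 104 CPM to 77.6, 77.7 and 70.1 CPM, a change with little spread at 3d (SE 0.08, edgeR adjusted p = 0.000888). *ND-B17* (NDUFB6), *ND-B12* (NDUFB3) and *ND-ASHI* (NDUFB8) fell by 0.40, 0.39 and 0.31, from means of 106, 81.2 and 94.9 CPM to 80.2, 61.9 and 76.4 CPM. The smallest falls were those of *ND-PDSW* (NDUFB10), by 0.25, and *ND-SGDH* (NDUFB5), by 0.23. *ND-SGDH* stood at 212, 200.2 and 201 CPM at 3d and 182, 158 and 183 CPM at 30d, and *ND-PDSW* at 112, 118 and 111 CPM and at 94.5, 98.2 and 95.0 CPM. In both the ages did not overlap, but the gap between them was narrow. Neighbouring exons overlap 26.1% of the exon bases of *ND-B22* and 8.06% of those of *ND-B18*.

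*ND-AGGG* (NDUFB2) was the lowest of the 32, with 22.0, 29.0 and 27.0 CPM at 3d and 21.8, 16.1 and 23.5 CPM at 30d. The ages overlapped through the lowest 3d sample and the highest 30d sample, and the log2 fold change of -0.35 (SE 0.16) did not pass (edgeR adjusted p = 0.116). Its estimate lay among those of the genes that fell and had the largest standard error of the 32. It passed when a trend with transcript length was removed, an alternative chosen after seeing the data.

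Besides these, *ND-ACP* encodes the mitochondrial acyl carrier protein (NDUFAB1), which serves fatty acid and lipoic acid synthesis and is also a subunit of complex I. It lies on chromosome 3L (FBgn0011361, 1329949 to 1331631, plus strand) and had 161, 147 and 151 CPM at 3d and 99.7, 91.9 and 106 CPM at 30d. It fell by 0.63 (SE 0.08), with the smallest edgeR adjusted p of the 32 genes (0.000148). *ND-MLRQ* is the counterpart of mammalian NDUFA4, which was long counted with complex I and is now placed with complex IV. By its symbol it is counted here among the 32 complex I genes. It fell by 0.59, from 243, 194 and 189 CPM to 136, 138 and 140 CPM, and every 30d sample lay below every 3d sample. *NP15.6*, the NDUFB11 gene, lacks an ND- symbol and was not among the 40. It fell by 0.59 (SE 0.09, edgeR adjusted p = 0.000427) from 91.3 ± 5.79 to 60.7 ± 2.15 CPM.

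Of the 30 falls, 23 passed the threshold with each of the 6 samples left out in turn. *ND-SGDH* passed in none of these 6 fits (-0.26 to -0.16). *ND-PDSW* passed only without 3d replicate 1, with changes between -0.26 and -0.22, and *ND-24* only without 3d replicate 2 or 30d replicate 2, with changes between -0.30 and -0.22. *ND-B14.5A* did not pass without 3d replicate 3 (-0.34) or 30d replicate 1 (-0.27), and *ND-15* not without 3d replicate 1 (-0.26) or 30d replicate 3 (-0.32). *ND-B14* did not pass without 30d replicate 2 (-0.36), nor *ND-B16.6* without 3d replicate 2 (-0.28). These 7 genes are mostly those with the smaller falls, and no sign changed among the 30.

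The 8 genes that could not be tested had at most 5 counts each over all 6 samples. For 6 of them the symbol marks a paralog of a subunit gene. Among these, *ND-20L* and *ND-24L* had 0 counts, *ND-51L1* had 2, *ND-51L2* had 3 and *ND-B14.5AL* had 1. A count of 0 in a library allows a level of up to 0.817 to 0.985 CPM (3 counts, counting error only), far below the 407 CPM that *ND-51* reached in its lowest sample. A shift from the main genes to these paralogs was therefore not detectable at this depth in heads of either age.

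For the other 2, the count of 0 or 1 has a different background. The exons of *ND-MNLL* (NDUFB1, chromosome X of dm6, 7893053 to 7893798, minus strand) are shared over 100% of their bases with *CG45089*. Both genes had 0 counts in all 6 samples. The counting leaves out reads that lie wholly within exons of more than 1 gene, so the level of *ND-MNLL* is unknown. *ND-B8* (NDUFA2, chromosome 2L, 4454626 to 4455207, plus strand) had 1 count in all. Only 15.4% of its 460 exon bases overlap another gene, *Gs1l*, in the annotation used here, and whether the annotation used for the counting differed there was not tested.

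Levels can be compared between genes only per length, as CPM per kilobase of exon, with all annotated exons of a gene merged. On this scale *ND-MLRQ* was highest in the 3d heads at 388 ± 56.1 CPM per kilobase (SD, n = 3), followed by *ND-51* at 267 ± 9.09 and *ND-SGDH* at 230 ± 7.28. *ND-B18* at 52.1 ± 11.6 and *ND-AGGG* at 34.9 ± 4.80 were lowest. From *ND-39* (189 ± 8.75) down to *ND-75* (178 ± 4.52), the genes at ranks 5 to 9 each lay within the summed SDs of the next, and so did those at ranks 10 to 25, from *ND-30* (156 ± 14.9) to *ND-24* (104 ± 3.85). In the mammalian enzyme each core subunit is present as a single copy, while the mRNA levels of the core genes ran from 104 to 267 CPM per kilobase. In the 30d heads *ND-51* stood at 264 ± 14.3 and *ND-MLRQ* at 256 ± 3.49, a difference within their spread, so that *ND-51* moved from rank 2 to rank 1. For the genes named with an exon overlap these levels leave out the reads within it. The length keeps the overlapped bases, so the levels of these genes may be too low.

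The 40 genes are scattered over the genome, with 9 on 2L, 8 on 2R, 9 on 3L, 4 on 3R, 1 on chromosome 4 and 9 on the X. Medians of the tested genes were -0.42 on 2L, -0.47 on 2R, -0.44 on 3L and -0.33 on the X, so the lower levels were seen on each of these arms. The 32 genes are also short, with a median of 857.5 exon bases against 2248 for all genes tested. The 16 tested genes with no exon overlap had a median of -0.40, and 15 of them fell.

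Of the subunits encoded in mitochondrial DNA, 2 genes of 7 fell and 1 rose. The median of the 7 was -0.18. Under the alternative that removed a trend with transcript length, chosen after seeing the data, 4 fell and 0 rose, with a median of -0.25. With library size alone, the stricter filter, limma-voom or the replicate block, 2 fell and 2 rose. The same counts were found without 3d replicate 2 or without 30d replicate 1. *mt:ND2* fell from 203, 182 and 157 CPM to 135, 118 and 109 CPM (log2 fold change -0.58, SE 0.11, edgeR adjusted p = 0.00133). *mt:ND4L*, low at 24.0 ± 8.21 CPM, fell to 14.2 ± 0.976 CPM, and did not pass without 3d replicate 1 or 30d replicate 3. *mt:ND3* rose by 0.26, from 256 ± 24.1 to 307 ± 23.2 CPM, at the edge of the threshold (edgeR adjusted p = 0.0442). It did not pass without 3d replicate 1 or 3 or without 30d replicate 2 or 3, with changes between 0.19 and 0.32 over the 6 fits, nor with DESeq2's Wald test or the length trend removed. The abundant *mt:ND1* had 1182, 1322 and 1218 CPM at 3d and 1361, 1505 and 1527 CPM at 30d, with no overlap, and just missed the threshold (log2 fold change 0.24, SE 0.09, edgeR adjusted p = 0.0512). *mt:ND4* and *mt:ND5* were at -0.13 and -0.18, and *mt:ND6*, at 7.71 CPM on average at 3d and 4.70 CPM at 30d, was at -0.70, and none of these passed. Summed, the 7 mitochondrial genes stood at 4678 to 5096 CPM in 3d heads and 4460 to 4973 CPM in 30d heads, which overlap. These RNAs were measured after selection of poly(A) tails, which mitochondrial mRNAs also carry.

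Assembly factors place and fold the subunits but are absent from the finished complex. Of 10 such genes, 1 passed, and their median was -0.06. This was *CG11722*, the NDUFAF4 counterpart, which fell from 16.1, 16.1 and 16.9 CPM to 10.4, 9.30 and 14.3 CPM (log2 fold change -0.54, SE 0.18, edgeR adjusted p = 0.0374). It passed in only 1 of the 6 fits with a sample left out, the one without 30d replicate 3, with changes between -0.73 and -0.41 over the 6. *CIA30* (NDUFAF1), *sicily* (NDUFAF6), *ECSIT*, *CG5569* (NDUFAF3), *Egm* (ACAD9) and *l(2)37Bb* (FOXRED1) had log2 fold changes between -0.15 and 0.16. *Nubpl*, which delivers iron-sulfur clusters to complex I, was at -0.11, while *CG17726* and *CG8067* were at -0.39 and 0.33. *Nubpl* averaged 152 CPM at 3d and 141 CPM at 30d, and the other assembly genes averaged at most 36.9 CPM, where changes of the size seen in the subunits are harder to detect.

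The other nuclear genes of the respiratory chain were lower at 30d as well. All 4 genes of complex II fell (median -0.28), as did all 8 tested of 9 in complex III (-0.44), all 9 of complex IV (-0.52) and all 13 of ATP synthase (-0.60). The largest falls were those of *SdhD* in complex II (-0.52), *UQCR-Q* in complex III (-0.67), *COX6B* in complex IV (-0.62) and *sun*, the epsilon subunit of ATP synthase (-0.91). The smallest were those of *SdhB* (-0.25), *UQCR-C2* (-0.31), *COX7A* (-0.36) and *ATPsynE* (-0.45). Each of these genes fell, whereas complex I held a gene with a change near 0, *ND-51*. The order of the medians is a description, as no test between the complexes was made. The complex II count was 1 of 4 with scaling by library size alone and without 30d replicate 2. It was 3 of 4 with DESeq2's Wald test, without 3d replicate 2 and without 30d replicate 3. The complex III count was 7 of 8 with scaling by library size alone and with DESeq2's Wald test. It was also 7 without 3d replicate 1 or 2 and without 30d replicate 1 or 2.

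**Figure D3:**
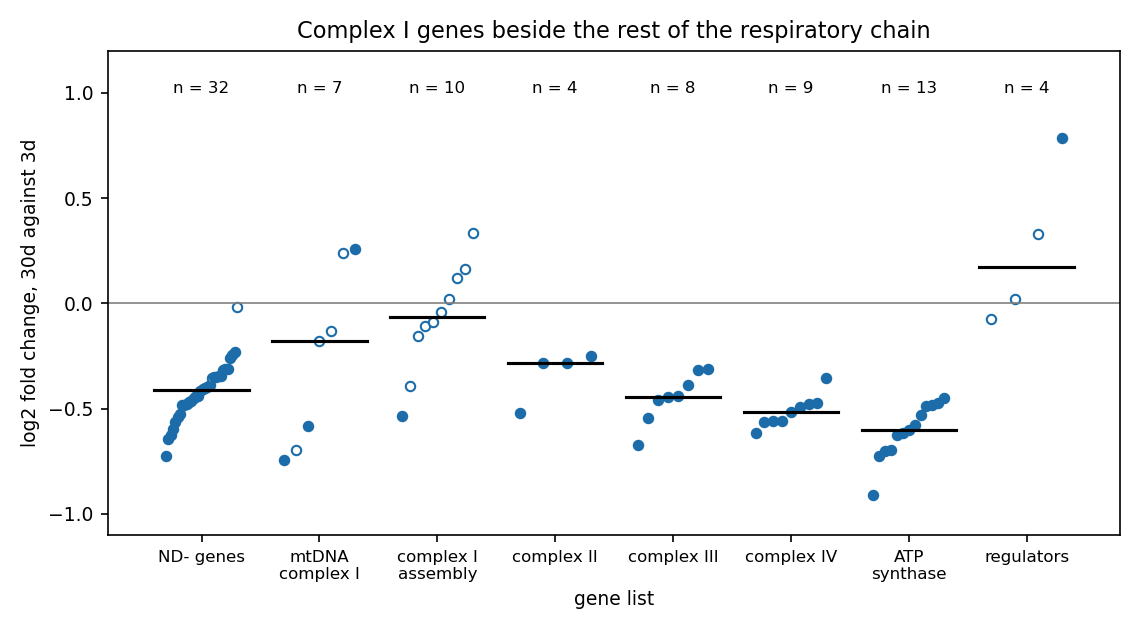
Log2 fold change of single genes, 30d against 3d heads (y axis), for complex I and the lists set beside it (x axis), with the number of genes tested. Bars are medians, filled points passed the threshold and open points did not, and the nuclear lists of complexes I to IV and ATP synthase have medians from -0.60 to -0.28 while the assembly list is at -0.06.

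Among 4 regulators of mitochondrial biogenesis, only *srl*, the fly counterpart of the coactivator PGC-1, passed. It rose from 9.53, 15.57 and 14.2 CPM to 23.7, 20.2 and 24.6 CPM (log2 fold change 0.78, SE 0.18, edgeR adjusted p = 0.00496), opposite in direction to the subunit genes. *TFAM*, *ewg* and *Ets97D* were at -0.07, 0.02 and 0.33.

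Many, but not all, of the muscle, neuron and glia markers were also lower at 30d. Of 14 muscle markers 12 were tested and 11 fell, and their sum was 4935 to 7128 CPM in 3d heads and 3174 to 3291 CPM in 30d heads. The flight muscle genes *TpnC4* and *fln* were at or near 0, at up to 0.858 and 3.85 CPM, and were not tested. *Act88F*, the flight muscle actin gene, was also low, at 12.5, 6.28 and 5.33 CPM at 3d and a mean of 2.85 CPM at 30d. It had the largest fall of the muscle markers tested (log2 fold change -1.45, SE 0.38, edgeR adjusted p = 0.0114). Of the 6 neuron markers 5 fell, with sums of 4418 to 5474 CPM at 3d and 3203 to 3459 CPM at 30d. Their changes ran from *Syt1* at -0.84 to *elav* at -0.18, which did not pass. Of the 6 glia markers 4 fell, with sums of 3394 to 3981 CPM and 2682 to 2736 CPM. Their changes ran from *nrv2* at -0.93 to *repo* at 0.17, which did not pass. Of the 7 photoreceptor markers 2 fell, and their sums, 47935 to 56126 CPM and 52972 to 64745 CPM, overlapped. By gene, 5 of the 7 were fitted lower, with a median of -0.22, from *inaD* at -0.65 to *ninaE* at 0.31. *ninaE* alone averaged 25142 CPM at 3d, of a mean sum of 53156 CPM, and so weighs heavily in the sums. The part of these markers in the lower levels of complex I was not tested. The library with the most muscle RNA was 3d replicate 1, and without it 27 complex I genes fell, with a median of -0.39. Among all 8915 genes tested in that fit, 1146 fell, and the median of the 8915 was 0.01. In the same fit 11 of the 12 muscle markers fell as well, with a median of -0.81.

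**Figure D4:**
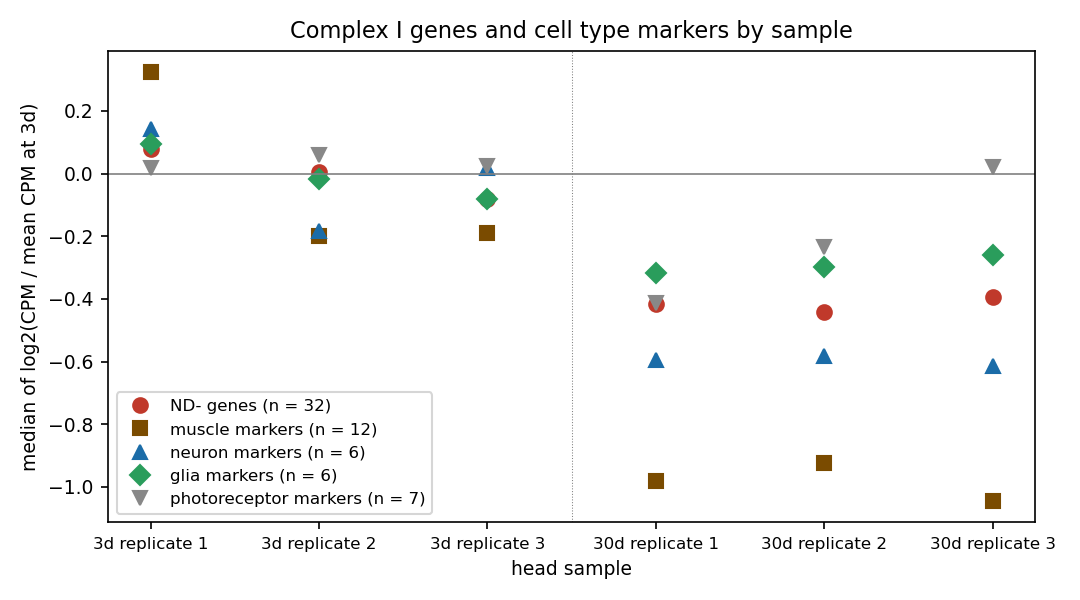
Median over genes of the log2 ratio of CPM to the 3d mean (y axis) in each head sample (x axis), for the 32 complex I genes tested and for 4 lists of cell type markers. The complex I genes lie at 0.08, 0.01 and -0.08 in the 3d samples and at -0.42, -0.44 and -0.39 in the 30d samples, between the glia and the neuron markers at 30d, while muscle markers lie between -1.04 and -0.92.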

How the data were processed

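Per the methods of the study, RNA from dissected heads was selected for poly(A) tails and sequenced from single ends. STAR alignments to dm6 were counted per gene by the authors with HTSeq, in its strict mode and without strand. The deposited values are raw read counts per gene, not normalized, and every column of the table was used (0 left over). The annotation release used for the counting is not given in the sources used here. Symbols, positions and exon lengths were taken from Ensembl's annotation of this assembly, which holds 17356 of the 17492 identifiers and all 40 genes described.

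Counts were analysed in R 4.3.3 with edgeR 4.0.16, using its expression filter by age (minimum count 10), TMM scaling and its quasi-likelihood test (two-sided), with p-values adjusted by Benjamini-Hochberg across all genes that passed the filter and called below 0.05. The standard error was the log2 fold change divided by the square root of F. Alternatives were DESeq2's size factors, library size alone, both looser and stricter filters, DESeq2 1.42.0, limma-voom (limma 3.58.1), the replicate block, each sample left out, and removal of a length trend, added after seeing the data. The planned comparison of paralog proteins and promoters was not run. Scripts were tested on simulated data, with 100 genes changed by log2 0.4 and 100 by log2 1. Of these edgeR recovered 34% and 100%, and DESeq2 27% and 99%. A change near 0.4 can thus be missed. Far fewer genes changed there than were called in the heads, so these shares need not hold for the heads. Tables and plots used Python 3.11.15, pandas 2.3.3 and matplotlib 3.10.9.

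By the rule for named genes, each ND- gene could be named, as could every mitochondrially encoded and assembly gene, and in each other list the highest and the lowest change. The members, lists and modules were chosen with earlier results of these data known. Modules follow the mammalian complex. No reference sequence was used here. The values of 1 core gene and of its paralog are not reported here, though they enter the counts and medians.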

Additional observations from a re-analysis of the deposited data

How the results depend on the processing

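The number of complex I genes called was 26 to 27 with a sample left out and 25 to 31 under the other alternatives. In each case none was higher at 30d. Among all genes, 1003 to 1391 of 8879 to 8917 tested were called lower with a sample left out. Under the other alternatives 1053 to 1613 of 8241 to 13698 were. The median log2 fold change of the complex I genes stayed between -0.47 and -0.39 with a sample left out. It was -0.33 with scaling by library size alone, which moved the median of all genes up by 0.08. It became -0.51 when a trend with transcript length was removed, alone or with the replicate block, an alternative chosen after seeing the data, and 31 genes were then called, *ND-AGGG* included. *ND-51* turned to 0.063 with library size alone, and with a sample left out it ran from -0.060 to 0.0084, above 0 when 30d replicate 2 (0.0084) or 30d replicate 3 (0.0082) was absent. Library size alone lost the calls of *ND-24*, *ND-B14.5A*, *ND-PDSW* and *ND-SGDH*, and DESeq2's Wald test lost these 4 and *ND-ASHI*. *ND-SGDH* also lost its call under both other filters. The Wald test called 741 of all genes higher at 30d against 1259, and the total of all genes called was 1879 to 2596 with a sample left out and 1812 to 2975 under the rest. The replicate block called 2907 genes and the same 30 members. Deviations of same-numbered samples correlated at 0.143, 0.0167 and 0.0522, and those of the other pairs at -0.122 to 0.0970. These few values cannot show whether same-numbered samples shared a batch. Of the assembly genes, 0 were called with library size alone or the Wald test. Of the mitochondrially encoded genes 1 was called without 3d replicate 1 or without 30d replicate 3. With library size alone 4 of them were called, 2 of these higher at 30d. Depth limits genes of few CPM, and the counts carry no molecular identifiers, so floors cover counting error only.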
